A study of Mus musculus with 25 samples.

Results

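The replication-dependent histone genes encode the H1, H2A, H2B, H3 and H4 proteins that package newly copied DNA. They were taken by symbol, as every gene named Hist1h, Hist2h, Hist3h or Hist4h in the deposited tables, with no measured pattern used beyond a floor of 1 FPKM (fragments scaled by transcript length and by the size of the library) in at least 1 RNA library. The RNA table listed 69 such symbols among 28446 genes, and 67 reached 1 FPKM. The exon table of chromatin accessibility held 68 such symbols among 23284 genes. It lacked Hist1h2al and Hist2h2bb-1 and held Hist3h2bb-ps, which had no RNA value. It also held Hist1h1t and Hist1h2aa, which stayed under 1 FPKM. The table of windows around gene starts held 78 start regions with such a symbol among 28488 regions. Among the 67, the Hist1 group had 53 members, the Hist2 group 11, the Hist3 group 2 and the Hist4 group 1, and by protein there were 5 H1, 18 H2A, 19 H2B, 12 H3 and 13 H4 genes.

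The samples were retinas of CD1 mice, an outbred strain, whose cells were sorted by GFP fluorescence. The labels call the GFP+ cells retinal progenitor cells and the GFP- cells post-mitotic retinal cells, and they do not name the reporter that carried GFP. RNA was measured in GFP+ and GFP- cells at embryonic day 14 (E14), embryonic day 18 (E18) and postnatal day 2 (P2), with 2 libraries in each of the 6 groups. ATAC-seq, in which an enzyme tags DNA that is not wrapped tightly, covered GFP+ cells only. It had 1 library from E10, labelled as day 10 or 11, and 2 from each of 6 later stages: E12.5 and E14, then E16.5 and E18, and after birth P0 along with P2. No treatment or mutation is named for any group. The labels do not say whether the replicates came from separate animals, so each p-value measures only the spread between these libraries, which may be technical. The series is titled as a study of transfer learning across measurement types. The comparisons below follow its labels of sort and stage.

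These genes are switched on together at the start of S phase, when a cell needs a full new set of histones within hours. Their messages are unusual in having no poly(A) tail: they end just after a short stem-loop, which the stem-loop binding protein Slbp grips, and the U7 small nuclear ribonucleoprotein directs the cut. The stem-loop also sets the decay of the message when DNA synthesis stops, so these messages serve as a mark of cells in S phase, which in the developing retina are the dividing progenitors. In the mouse the genes lie in clusters, and neighbouring H2A and H2B genes often face away from each other and share the DNA between them as a promoter. A few members can also end in a poly(A) tail in cells that have left the cycle.

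The stem-loop is the element that sets these messages apart from nearly all others, so 7 are shown, each with 5 bases on both sides, as DNA 5′ to 3′ on the gene's own strand, from the GENCODE M21 transcripts on GRCm38. Capitals mark the 6 bases of each arm of the stem, and the 4 lower-case bases between them are the loop. The first 3 stand for the commonest form of the H1, H2A, H2B and H3 genes and its 2 variants, and the last 4 include the 3 forms that were found in H4 genes only.
Hist1h1c: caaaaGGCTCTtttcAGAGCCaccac
Hist1h2bb: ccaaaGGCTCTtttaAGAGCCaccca
Hist2h2ac: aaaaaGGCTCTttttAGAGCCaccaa
Hist1h4d: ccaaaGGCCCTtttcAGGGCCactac
Hist1h4i: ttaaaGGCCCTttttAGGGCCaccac
Hist1h4j: ctaaaGGTCCTtttcAGGACCaccac
Hist3h2ba: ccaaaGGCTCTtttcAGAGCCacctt

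Of the 65 members with a protein-coding transcript in that annotation, 51 had at least 16 annotated bases after the stop codon, enough to hold the element, and 43 of the 51 held a stem-loop with no mismatch. The same search found it in 50 of 20914 other protein-coding genes, which is 0.239%. The form in Hist1h1c was present in 26 members, of which 3 were H1, 10 H2A, 8 H2B and 5 H3 genes. The form in Hist1h4d was present in 7 members, all H4. The form in Hist1h2bb was present in 2 H2B and 3 H3 genes, the form in Hist1h4i in 2 H4 genes, that in Hist1h4j in 2 H4 genes and that in Hist2h2ac in 1 H2A gene. The stem began 24 bases after the stop codon in Hist1h1c, 36 in Hist1h4d and 28 in Hist3h2ba. A transcript model that ends before the element cannot show it, so the 14 members with fewer than 16 bases after the stop codon say nothing on its presence.

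The promoters of 3 members show the letters these genes share upstream of the start. The sequences are the 150 bases before the RefSeq start on GRCm38, 5′ to 3′ on the gene's strand, with capitals for 3 motifs on either strand. These are the CCAAT box, the TATA box as TATAAA, and the octamer ATTTGCAT. Hist1h4d (chr13:23581418-23581567, plus strand) was the most abundant member, Hist1h2bb (chr13:23746584-23746733, plus strand) was the most abundant one with the octamer, and Hist1h1c (chr13:23738657-23738806, plus strand) is described at length below.
Hist1h4d: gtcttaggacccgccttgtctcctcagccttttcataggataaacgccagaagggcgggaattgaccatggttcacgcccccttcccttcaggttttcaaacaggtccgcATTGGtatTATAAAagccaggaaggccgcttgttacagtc
Hist1h2bb: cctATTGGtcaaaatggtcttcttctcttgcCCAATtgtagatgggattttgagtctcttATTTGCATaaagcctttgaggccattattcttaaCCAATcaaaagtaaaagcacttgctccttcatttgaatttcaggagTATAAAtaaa
Hist1h1c: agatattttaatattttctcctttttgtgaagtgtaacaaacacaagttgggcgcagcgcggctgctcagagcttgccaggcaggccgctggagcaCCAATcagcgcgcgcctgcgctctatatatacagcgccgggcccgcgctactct

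In the 250 bases before the start, CCAAT stood on at least 1 strand in 50 of 61 member promoters, or 82.0%, against 33.8% of all 32851 promoters in the table. TATAAA stood in 29, or 47.5%, against 12.4% of all promoters, and ATTTGCAT in 13, or 21.3%, against 1.601%. The 61 include Hist1h1t and Hist1h2aa, which stayed under 1 FPKM in all RNA libraries, and both enter the counts by type. The letters were not spread evenly over the protein types. CCAAT was in every H1, H2A and H2B promoter matched, in 8 of 10 H3 promoters and in 3 of 12 H4 promoters, and the octamer was in 7 H2A and 6 H2B promoters and in no H1, H3 or H4 promoter. Divergent H2A and H2B neighbours share their upstream DNA, so these are fewer independent stretches than promoters. A match is a description of letters in this window and not a site of binding.

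FPKM values of the 12 RNA libraries summed to between 383872 and 504845 and carry no read depth, so the counting error behind a single value is unknown. ATAC exon counts summed to between 1474790 and 15915391 per library and counts in the start regions to between 11179094 and 94686369. Replicate libraries correlated at 0.950 in E14 GFP+, 0.745 in E14 GFP-, and 0.980 to 0.993 in the 4 other groups, over genes tested on the log2 scale. The second E14 GFP- library went against its label: the summed level of 12 progenitor markers was 2404 FPKM there and 661 in the first, and that of 12 neuron markers 113 there and 4628 in the first. Its 8 lens markers summed to 4443 FPKM, and 6 red blood cell markers summed to 2489 FPKM in the first E14 GFP- library. At E18 the progenitor markers summed to between 3695 and 4061 FPKM in GFP+ cells and 1393 to 1579 in GFP- cells, and the neuron markers to between 197 and 222 FPKM in GFP+ cells and 1294 to 1551 in GFP- cells. At P2 the progenitor markers summed to 2412 to 3003 FPKM in GFP+ cells and 1235 to 1727 in GFP- cells, and the neuron markers to 219 to 312 FPKM in GFP+ cells and 1091 to 1311 in GFP- cells. At E18 and P2, GFP- cells thus still held progenitor transcripts.

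The E18 libraries stood apart from the others in the histone genes themselves. At that stage, replication-dependent histone transcripts took 7.73% and 9.57% of all FPKM among GFP+ cells, against 2.61% and 3.15% among GFP- cells. Their share was 0.0338% to 0.0572% in the 8 libraries of E14 and P2. The median member was at 295 and 411 FPKM in E18 GFP+ cells and at 89.2 and 108 FPKM in E18 GFP- cells. The median was at 1.18 and 1.09 FPKM in E14 GFP+, 0.0840 and 0.629 in E14 GFP-, 0.459 and 0.800 in P2 GFP+, and 0.409 and 0.306 in P2 GFP- libraries. In 64 of the 67 members the lowest of the 4 E18 values lay above the highest of the 8 values outside E18. The same was true of 6.69% of all genes tested. Members such as Hist1h2ah, Hist1h2ba and Hist2h2aa2 reached the floor of 1 FPKM only at E18, which favours this count. In both E18 GFP+ libraries, 55 members exceeded 100 FPKM.

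**Figure D1:**
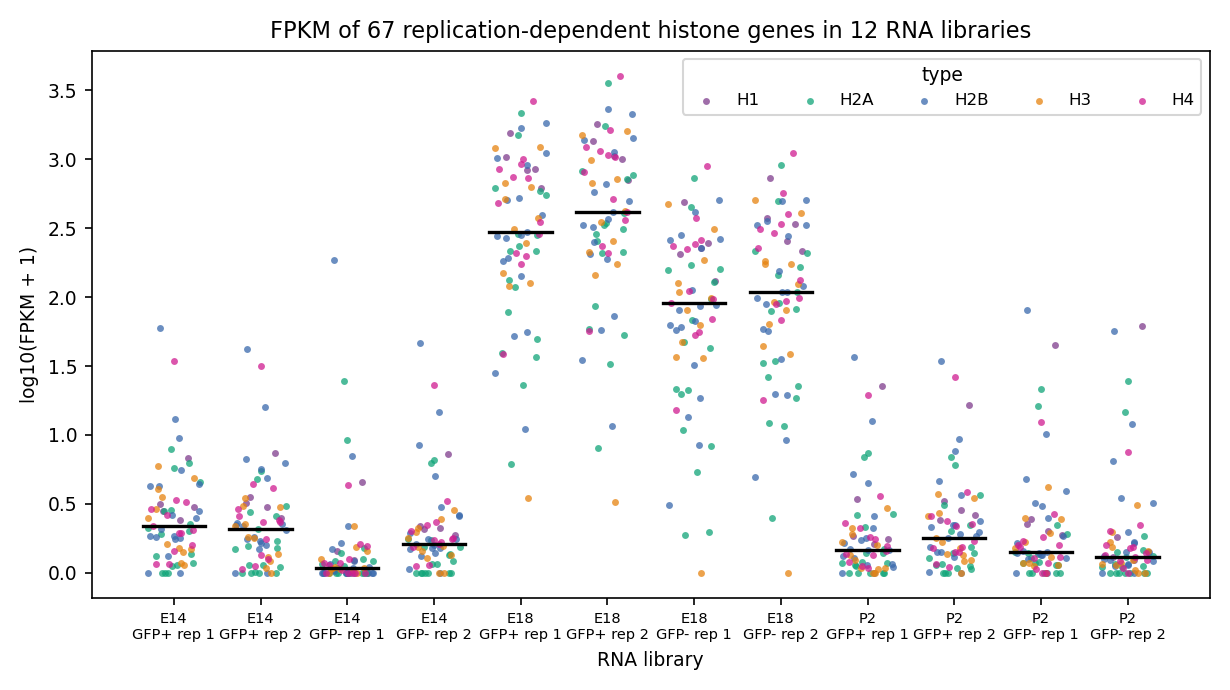
Level of each replication-dependent histone gene in each of the 12 RNA libraries, as log10(FPKM + 1), coloured by histone type, with a black bar at the median of the members. Nearly all members sit far above 1 FPKM in the 4 E18 libraries, with GFP+ above GFP-, and around or below 1 FPKM at E14 and P2.

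Between stages the GFP+ groups were compared with limma on log2(FPKM + 1), with Benjamini-Hochberg adjustment over the 14276 genes that reached 1 FPKM in at least 2 libraries, which all 67 members did, and with calls at an adjusted p under 0.05. A fold change on this scale understates the change of genes at low levels. Many members of the H2A, H2B, H3 and H4 types, such as Hist1h2ab, Hist1h3b and Hist4h4, stayed under 1 FPKM in every library outside E18. They passed the floor and this filter only through the E18 libraries. Counts of members higher at E18 thus include genes kept for being high there, which favours that direction. In E18 GFP+ against E14 GFP+ cells, 65 members rose and 0 fell, where 4.36% of all genes tested were called higher and 4.06% lower, and the median member difference was 7.46 on the log2 scale (0.04 over all genes tested). In P2 GFP+ against E18 GFP+ cells, 65 members fell and 0 rose, where 3.51% of all genes tested were called lower and 4.47% higher, with a median of −7.71 (−0.04 over all genes tested). The 2 comparisons share the E18 GFP+ libraries. The 2 members called in neither were Hist2h2be and Hist2h3c1. The smallest rises with a level above 0 at E14 were those of Hist1h4i (2.52 ± 0.65, adjusted p = 0.04996) and Hist3h2ba (3.42 ± 0.54, adjusted p = 0.00697). The call of Hist1h4i was lost under most alternatives, with adjusted p of up to 0.253.

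The H4 gene Hist1h4d (chr13:23673471-23673782, mm9) had the highest level of any member. It read 2.25 and 3.15 FPKM in E14 GFP+ libraries, 2648 and 4049.5 in E18 GFP+ libraries and 2.60 and 2.87 in P2 GFP+ libraries, and the E18 values overlapped with none of the others. Its difference was 9.80 ± 0.34 (SE, log2) between E18 and E14 and −9.78 ± 0.34 between P2 and E18. The H2B gene Hist1h2bn (chr13:21845992-21846372, mm9) rose most, reading 0.766 and 0.636 FPKM at E14, 1682 and 2310.1 at E18, and 0.459 and 1.21 at P2 in GFP+ cells. It differed by 10.18 ± 0.27 between E18 and E14 (adjusted p = 3.22e-07, limma) and by −10.10 ± 0.27 between P2 and E18. Hist2h2bb-1, an H2B entry of the Hist2 group by its symbol alone, fell most at P2, by 10.36 ± 0.44 on the log2 scale. It stood at 0.159 and 0.989 FPKM at P2, against 1848 and 2139 FPKM at E18, in GFP+ cells. It had no position and no exon entry, so what it measures beside Hist2h2bb is uncertain.

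The linker histones, which bind the DNA between nucleosomes, followed the core histones. Hist1h1e was the most abundant of the 5 at 1.79 and 2.57 FPKM in E14 GFP+, 1559.7 and 1801 in E18 GFP+ and 2.43 and 2.32 in P2 GFP+ libraries. Hist1h1d stood at 1031 and 1351 FPKM, Hist1h1a at 843 and 1049 and Hist1h1b at 614 and 710.4 in E18 GFP+ libraries, and none of these 3 exceeded 2.22 FPKM in any library of another stage. Hist1h1t, the testis-specific H1, did not pass 0.0462 FPKM in any of the 12 libraries. Hist1h2ba, an H2B variant known from testis, was listed at 0 in all 8 libraries outside E18 and at E18 read 54.7 and 72.6 FPKM among GFP+ cells, with 17.6 and 18.6 FPKM among GFP- cells. Hist1h2aa, its H2A neighbour, read 0.323 FPKM in 1 E18 GFP+ library and stayed out of the 67.

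In GFP- cells the same stage pattern was seen at lower levels. In E18 GFP- against E14 GFP- cells, 63 members rose and 0 fell, where 8.23% of all genes tested were called higher and 5.9% lower (limma), with a median of 6.16 on the log2 scale. In P2 GFP- against E18 GFP- cells, 64 members fell and 0 rose, where 5.21% of all genes tested were called lower and 5.9% higher, with a median of −5.98. Hist1h4d differed most between E18 and E14 in GFP- cells, by 8.76 ± 0.34, at 893 and 1114 FPKM in E18 GFP- and 0.616 and 2.30 FPKM in E14 GFP- libraries. With the second E14 GFP- library left out, 64 members rose between E14 and E18 (limma, the lone library taken to vary like the others).

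Each histone type took a like share of the histone RNA in both sorts at E18, although the amount differed. H2B genes held 27.1% and 25.6% of member FPKM in E18 GFP+ libraries and 25.46% and 23.7% in E18 GFP- libraries, and H4 genes held 23.998% and 26.4% in GFP+ and 26.3% and 27.99% in GFP-. H2A genes held 19.8% to 21.2%, H3 genes 14.1% to 15.5% and H1 genes 12.2% to 14.3% over the 4 libraries. The Hist1 group, 54 of whose symbols lie in chr13:21807632-24026720 (mm9), held 87.1% to 90.6%. The Hist3 pair on chromosome 11 held 2.19% and 1.88% in GFP+ and 4.36% and 3.71% in GFP-. Outside E18 the Hist3 pair held 25.3% to 86.9% of member FPKM.

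Some transcripts outside this gene family also stood out at E18. The stage cannot be told apart from any other difference between the E18 libraries and the rest. Malat1, an abundant nuclear noncoding RNA whose end is formed without a usual poly(A) tail, read 89.6 and 80.3 FPKM in E14 GFP+, 1869 and 1706 in E18 GFP+ and 123 and 81.6 in P2 GFP+ libraries. It differed by 4.38 between E18 and E14 and by −4.14 between P2 and E18 on the log2 scale, both called (limma). Kcnq1ot1, a long nuclear noncoding RNA, read 0.137 and 0.200 FPKM at E14, 1.89 and 1.84 at E18 and 0.177 and 0.137 at P2 in GFP+ cells. Of 5 noncoding genes tested, 2 were called higher and 0 lower in E18 GFP+ against E14 GFP+ cells, and 2 lay below 0. Of all genes tested, 4.36% were called higher there. The gene Lars2 read 5033 and 5031 FPKM in E18 GFP+ libraries but was listed at 0 in both E18 GFP- libraries, and stood between 61.2 and 299 FPKM elsewhere. One extraction text, which names a total RNA kit, covers all libraries, while the molecule label is polyA RNA. The part of RNA selection in the E18 values was not tested. In bulk RNA, more cells of a type and more RNA per cell cannot be told apart either.

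At E18, GFP+ cells held more histone RNA than GFP- cells. All 67 members had both GFP+ values above both GFP- values, which 39.6% of all genes tested also had, and the median ratio of group means was 3.77. In limma, 52 of the 67 rose and 0 fell in GFP+ against GFP- cells, where 1.13% of all genes tested were called higher and 2.49% lower, with a median difference of 1.91 on the log2 scale (0.00 over all genes tested). The count fell to 7 without the first E18 GFP+ library, 2 without the second, 2 without the first E18 GFP- library and 3 without the second, where a lone library is taken to vary like the others. It was 26 without either P2 GFP+ library and 5 with a pseudocount of 0.1, and 66 without either E14 GFP- library, where 41.9% and 42.6% of all genes tested were called in either direction. By type, all 5 H1, 14 of 18 H2A, 13 of 19 H2B, 10 of 12 H3 and 10 of 13 H4 members were called. The progenitor and neuron marker sums given above moved with the same sort, and their part in the result was not tested.

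Among H2A genes, Hist1h2ah (chr13:22127035-22127421, mm9) differed most between the sorts, with 133 and 286 FPKM in GFP+ and 9.92 and 11.2 in GFP- libraries. The difference was 4.08 ± 0.33 (adjusted p = 0.00176, limma). Hist1h2al read 2165 and 3579 FPKM in GFP+ and 731 and 913 in GFP- libraries, a difference of 1.77 ± 0.26 (adjusted p = 0.0184, limma). Hist1h2al is a noncoding entry in the reference annotation with near-identical coding relatives, so its level is uncertain. Hist1h2ak read 1492 and 1747 FPKM in GFP+ and 449 and 501 in GFP- libraries and Hist1h2ab 586 and 716 in GFP+ and 127 and 165 in GFP-, with differences of 1.76 ± 0.27 and 2.15 ± 0.22. Hist1h2ap, at 35.6 and 213 FPKM in GFP+ and 0.991 and 17.7 in GFP- libraries, had replicates far apart and did not pass the test (adjusted p = 0.0767).

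Among H2B genes, Hist1h2br read 27.3 and 34.2 FPKM in GFP+ and 2.11 and 3.98 in GFP- libraries, a difference of 3.004 ± 0.24 (adjusted p = 0.00176, limma). Hist1h2br has near-identical copies, Hist1h2bq among them, so its level is uncertain. Hist1h2bn, the H2B gene with the largest stage difference, read 1682 and 2310.1 FPKM in GFP+ and 413 and 494 in GFP- libraries, a difference of 2.12 ± 0.27 (adjusted p = 0.0115). Hist1h2ba differed by 1.75 ± 0.20 (adjusted p = 0.0066, limma). Hist2h2bb-1, with 1848 and 2139 FPKM in GFP+ and 508 and 505 in GFP- libraries, and Hist1h2bb, with 1119.5 and 1426 in GFP+ and 262 and 331 in GFP-, missed the threshold narrowly, at adjusted p of 0.0504 and 0.0545.

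Among H3 genes, Hist1h3a read 669 and 983 FPKM in GFP+ and 125 and 181 in GFP- libraries, a difference of 2.43 ± 0.47 (adjusted p = 0.037, limma). Hist1h3i had the highest E18 GFP+ level of the H3 genes, at 1233 and 1602 FPKM in GFP+ and 311 and 406 in GFP- libraries. Hist1h3e (chr13:23653824-23654234, mm9), at 1203 and 1501 in GFP+ and 475 and 505 in GFP-, differed by 1.45 ± 0.28. Hist1h3b read 634 and 722 FPKM in GFP+ and 185 and 173 in GFP- libraries, a difference of 1.91 ± 0.21. The 3 H3 genes of the Hist2 group were lower in level. Hist2h3b read 244 and 256 FPKM in GFP+ and 61.5 and 80.3 in GFP-, Hist2h3c2 read 127 and 173 in GFP+ and 35.4 and 37.9 in GFP-, and Hist2h3c1 did not exceed 3.18 FPKM in any library, where its near-identical copy makes its level uncertain.

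Among H4 genes, Hist1h4d read 2648 and 4049.5 FPKM in GFP+ and 893 and 1114 in GFP- libraries, a difference of 1.71 ± 0.34 (adjusted p = 0.0408, limma). Hist4h4 (chr6:136750074-136752952, mm9), the lone member of its group, read 209.7 and 233 FPKM in GFP+ and 109.7 and 87.9 in GFP- libraries and differed by 1.16 ± 0.20 (adjusted p = 0.0262), the smallest difference of the 13 H4 genes. Hist2h4 read 37.4 and 55.5 FPKM in GFP+ and 14.1 and 17.0 in GFP- libraries, a difference of 1.499 ± 0.24. Hist1h4i, at 173 and 207 FPKM in GFP+ and 52.1 and 66.8 in GFP-, was lower at E18 than most H4 genes, whose median of group means was 642 FPKM in GFP+ and 158 in GFP-.

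The 5 H1 genes were all called at E18. Hist1h1e read 1559.7 and 1801 FPKM in GFP+ and 491 and 736 in GFP- libraries, a difference of 1.48 ± 0.27 (adjusted p = 0.0345, limma). Hist1h1d read 1031 and 1351 FPKM in GFP+ and 205 and 371 in GFP-, a difference of 2.09 ± 0.43, and Hist1h1c 856 and 1008 in GFP+ and 246 and 337 in GFP-, a difference of 1.68 ± 0.28. The groups did not overlap in any of the 5. Hist1h1a differed by 1.97 ± 0.37 and Hist1h1b by 1.98 ± 0.37.

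The H2A and H2B genes of Hist2 and Hist3 included the members that differed least. Hist2h2aa1 read 118 and 208 FPKM in GFP+ and 20.2 and 33.5 in GFP- libraries (2.55 ± 0.34, adjusted p = 0.013, limma), while its near-identical neighbour Hist2h2aa2 was listed at 0 outside E18 and read 5.19 and 7.05 in GFP+ and 0.887 and 1.52 in GFP- libraries. Hist2h2ac read 283 and 409 FPKM in GFP+ and 95.7 and 108 in GFP-, Hist2h2ab 38.5 and 57.6 in GFP+ and 20.4 and 32.1 in GFP-, and Hist2h2bb 51.2 and 56.7 in GFP+ and 12.4 and 18.8 in GFP-. The Hist3 pair was not called: Hist3h2a read 285 and 334 FPKM in GFP+ and 169.9 and 143 in GFP- libraries (0.98 ± 0.54, adjusted p = 0.239), and Hist3h2ba 502 and 577 in GFP+ and 280.4 and 353 in GFP- (0.77 ± 0.54, adjusted p = 0.343).

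Outside E18, 57 of the 67 members stayed below 5 FPKM in all 8 libraries. The other 10 were Hist1h1c, Hist1h2ae, Hist1h2al, Hist1h2bc, Hist1h2bj, Hist1h4i, Hist2h2bb-1, Hist2h2be, Hist3h2a and Hist3h2ba. Of these, Hist2h2be (chr3:96025044-96027661, mm9), an H2B gene with a polyadenylated form known in human cells, was the one member with nearly even levels. It read 8.56 and 14.9 FPKM in E14 GFP+, 10.0 and 10.6 in E18 GFP+ and 11.7 and 8.33 in P2 GFP+ libraries, and between 6.01 and 13.6 in GFP- libraries, and its GFP+ values overlapped between all 3 stages. In GFP- cells it read 7.43 and 8.25 FPKM at E18 and 9.09 and 11.1 at P2, which did not overlap and was not called. It was also one of 8 members with 16 or more bases after the stop codon and no perfect stem-loop. The others were Hist1h1a, Hist1h2bc, Hist1h2bq, Hist1h2br, Hist1h3g, Hist1h4a and Hist2h3b.

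Hist3h2ba (chr11:58762413-58763032, mm9), an H2B gene, was the most abundant member outside E18. It read 59.1 and 41.2 FPKM in E14 GFP+ and 185 and 45.2 in E14 GFP- libraries, where 185 was in the library with neuron markers and 45.2 in the one that went against its label. At P2 it read 35.6 and 33.5 FPKM in GFP+ and 79.1 and 55.8 in GFP- libraries, so GFP- values were the higher at P2, which was not called. Its neighbour Hist3h2a read 6.91 and 3.82 FPKM in E14 GFP+, 23.7 and 5.25 in E14 GFP-, 5.90 and 5.90 in P2 GFP+ and 15.2 and 13.7 in P2 GFP- libraries. The pair thus stood higher in GFP- than in GFP+ cells at P2 and lower in GFP- than in GFP+ cells at E18. Hist1h4i read 33.6 and 30.9 FPKM in E14 GFP+, 3.34 and 22.1 in E14 GFP-, 18.4 and 25.3 in P2 GFP+ and 11.4 and 6.48 in P2 GFP- libraries, the reverse order of the Hist3 pair at P2.

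**Figure D2:**
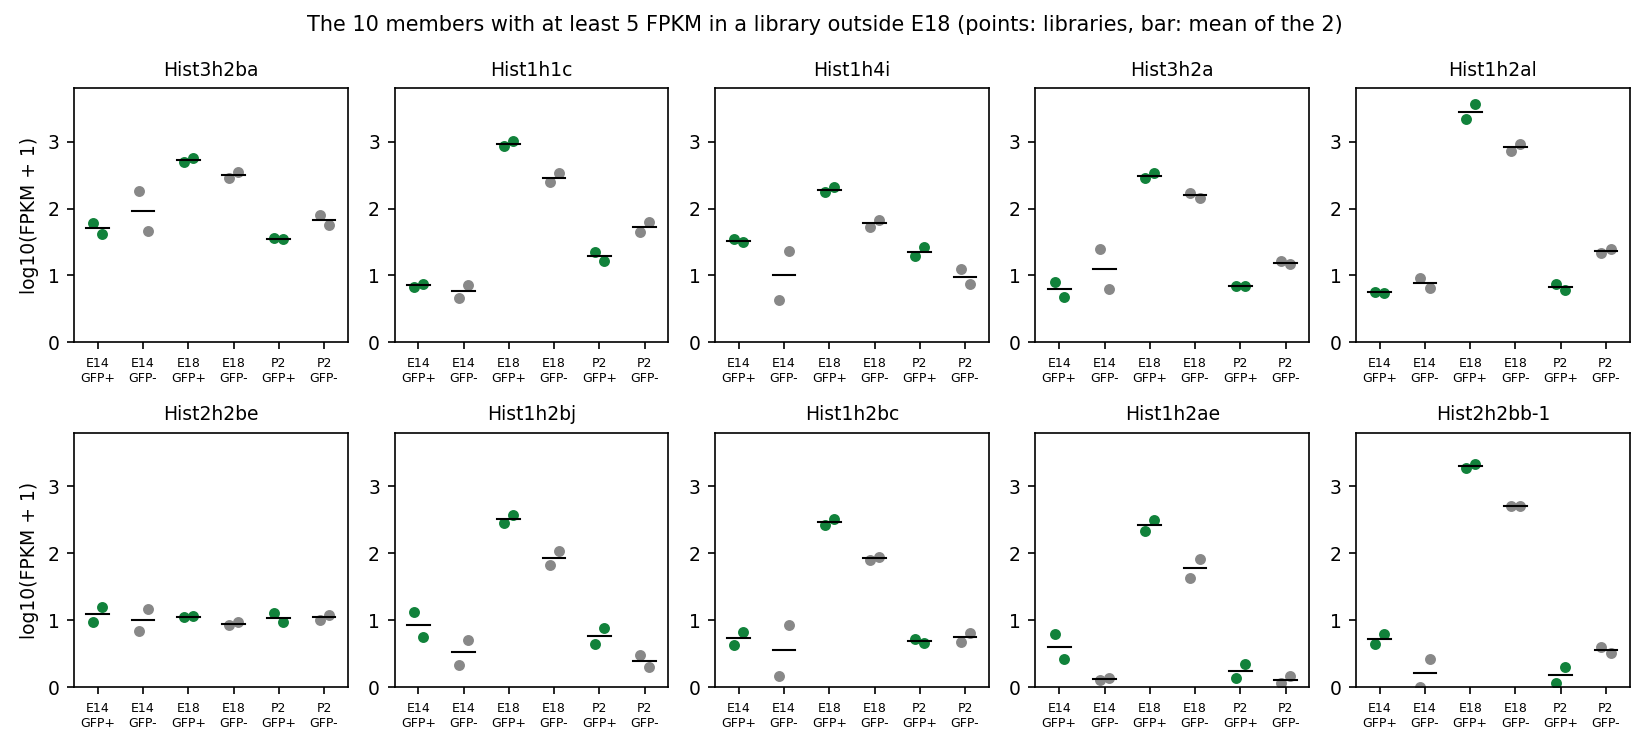
Level, as log10(FPKM + 1), of the 10 members that reached 5 FPKM in a library outside E18, with a point for each library and a bar at the mean of the 2 points. Hist2h2be is level across stages, and Hist3h2ba, Hist3h2a, Hist1h1c, Hist1h2al and Hist2h2bb-1 are higher in GFP- than in GFP+ libraries at P2.

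Hist1h1c (chr13:23830676-23832236, mm9), the linker histone H1.2, was the H1 gene that persisted at P2. It read 5.84 and 6.41 FPKM in E14 GFP+, 856 and 1008 in E18 GFP+ and 21.6 and 15.6 in P2 GFP+ libraries, and 43.7 and 61.1 in P2 GFP- libraries. The 4 other H1 genes had at most 2.43 FPKM at P2. In P2 GFP+ against E14 GFP+ cells it differed by 1.44 ± 0.28 with no overlap, which missed the threshold (adjusted p = 0.0571, limma). In the annotation, 840 bases follow its stem-loop, 1643 follow that of Hist3h2a and 169 that of Hist3h2ba, against 23 in Hist1h2bb and 23 in Hist1h2bj. Among the 21 members with more than 100 bases after the stem-loop, 5 reached 5 FPKM outside E18, and among the 22 with at most 100 bases, 1 did. The median ratio of E18 to other GFP+ means was 416 in the 21 and 415 in the 22.

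At P2, limma called 1 member between the sorts, and it was lower in GFP+ cells, where 1.37% of all genes tested were called lower and 0.112% higher. This was Hist1h2al, at 6.38 and 5.10 FPKM in GFP+ and 20.5 and 23.5 in GFP- libraries, a difference of −1.77 ± 0.26 (adjusted p = 0.0212). Hist1h1c went the same way, by −1.45 ± 0.28, and missed the threshold (adjusted p = 0.0505). The median member difference was 0.15, at member medians of 0.459 and 0.800 FPKM in GFP+ and 0.409 and 0.306 in GFP- libraries. By group the median difference was 0.30 in Hist1, −0.42 in Hist2, −1.04 in Hist3 and 0.06 in Hist4. The count ranged from 0 to 10 when 1 library was left out, was 0 without the E18 libraries, and was 13, of which 7 were higher and 6 lower, in a fit of only the P2 groups, where 25.1% of all genes tested were called. Between P2 GFP+ and E14 GFP+ cells, limma called 0 members, where 0.932% of all genes tested were called higher and 0.217% lower, with 8 members, or 11.9%, at an unadjusted p under 0.05, against 14.0% of all genes tested, and 1 member after rescaling the libraries with the histone genes, the mitochondrial genes and the abundant noncoding RNAs set aside. At E14, limma called 0 members between the sorts, where 0% of all genes tested were called, with 23 members, or 34.3%, at an unadjusted p under 0.05, against 15.7% of all genes tested, and a median difference of 0.54. Without the second E14 GFP- library, which went against its label, 32 members were higher and 2 lower, where 48.5% of all genes tested were called in either direction, with the lone library taken to vary like the others.

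The sort difference was tested between P2 and E18 as an interaction. It was called for 4 members, all lower at P2, where 0.07% of all genes tested were called lower and 0.028% higher (limma). Hist1h2ah had an interaction of −3.99 ± 0.46 (adjusted p = 0.0305), Hist1h2al of −3.54 ± 0.37 (adjusted p = 0.0267), Hist1h1c of −3.13 ± 0.40 (adjusted p = 0.0439) and Hist1h2br of −2.99 ± 0.34 (adjusted p = 0.0305). Hist1h2al and Hist1h1c had GFP+ above GFP- at E18 and below it at P2, whereas Hist1h2ah and Hist1h2br stood at 0.128 FPKM or less in every P2 library, so for those 2 the interaction is the E18 difference alone. All 4 calls were lost (0 calls) with a pseudocount of 0.1, with a replicate block and without any one of the E14 GFP+, E18 GFP- or P2 GFP+ libraries. The count was 28 without the first E14 GFP- library and 29 without the second, where 1.1% and 1.2% of all genes tested were called, and 39 without the E14 libraries, where 3.03% were called.

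The factors that make and process histone messages moved far less. Of 22 genes of histone supply and 3′ end processing, 1 rose and 0 fell in GFP+ against GFP- cells at E18 (limma). Of all genes tested, 1.13% were called higher and 2.49% lower. The median of the 22 was 0.36 on the log2 scale. The one called was Snrpe, a protein of the small nuclear ribonucleoprotein core, at 299 and 292 FPKM in GFP+ and 157 and 188 in GFP- libraries (0.78 ± 0.17, adjusted p = 0.0473). Slbp read 168 and 169 FPKM in GFP+ and 79.7 and 76.0 in GFP- libraries at E18 with no overlap, and its difference of 1.10 ± 0.31 was not called (adjusted p = 0.0805). Npat, the coactivator of histone transcription, read 20.5 and 19.8 FPKM in GFP+ and 13.6 and 13.5 in GFP- libraries.

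Across stages in GFP+ cells Slbp read 105 and 68.9 FPKM at E14, 168 and 169 at E18 and 67.8 and 85.4 at P2, and its difference between P2 and E18 of −1.14 was not called (adjusted p = 0.0616, limma). In E18 GFP+ against E14 GFP+ cells, 2 of the 22 genes fell and 0 rose. Of all genes tested, 4.06% were called lower there and 4.36% higher. In P2 GFP+ against E18 GFP+ cells, 2 rose and 0 fell, where 4.47% of all genes tested were called higher and 3.51% lower. They were Snrpd3, another core protein, at 47.8 and 56.6 FPKM at P2 and 18.9 and 20.98 at E18 (1.34 ± 0.16, adjusted p = 0.00184), and Srrt, at 191 and 202 FPKM at P2 and 109 and 109 at E18. Neither moved the way the histone genes did.

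Histone chaperones carry histones to DNA, and of 18 limma called 0 in either of these comparisons, with 5 at an unadjusted p under 0.05 and a median of 0.63 for the sort at E18, and 3 and −0.15 for P2 against E18. Of all genes tested, 29.7% had an unadjusted p under 0.05 for the sort at E18 and 22.6% for P2 against E18. Of 11 replication-independent variants, which are made through the whole cycle from polyadenylated messages, 0 were called for the sort at E18 (limma). Of these 11, 6 had an unadjusted p under 0.05 there. In P2 GFP+ against E18 GFP+ cells 1 fell, where 3.51% of all genes tested were called lower. H2afz, for example, read 683 and 785 FPKM in GFP+ and 260 and 318 in GFP- libraries at E18, and H3f3a 595 and 651 in GFP+ and 555 and 657 in GFP-. The one that fell was H2afj, at 12.7 and 11.9 FPKM at P2 and 19.5 and 19.7 at E18 in GFP+ cells. All 25 genes of DNA replication were above 0 in the sort difference at E18, with a median of 1.52, and 0 passed the adjusted threshold (limma), with 12 at an unadjusted p under 0.05. Pcna, the replication clamp, read 341 and 369 FPKM in GFP+ and 134 and 111 in GFP- libraries, and the proliferation marker Mki67 read 141 and 137 in GFP+ and 37.9 and 37.2 in GFP-. Of 5 noncoding genes tested, Malat1 alone was called for the sort at E18 and was lower in GFP+ cells (−1.04 ± 0.22, adjusted p = 0.0419), at 1869 and 1706 FPKM in GFP+ and 3935 and 3414 in GFP- libraries. Its sort direction was thus opposite to that of the histone genes.

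The genes outside the family whose level followed the members' mean most closely over the 12 libraries were Gm20628, Gm12238 and Gm10390, with Pearson r of 0.998, 0.992 and 0.991 on the log2 scale. The list of 15 held mostly unnamed gene models and also Ccdc107, at 0.979, and Tcf20, at 0.976. Ccdc107 overlaps or lies within 1000 bp of the noncoding RNA gene Rmrp and the coding gene Arhgef39. Other genes of the list had coding neighbours by the same rule, such as G3bp1 at Gm12238, while Tcf20 had noncoding ones. The 12 libraries fall into those of E18 and the others, so the r values describe that split.

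The chromatin of most of these genes gave signal in progenitors also at stages where little of their RNA was measured. Of the 68 members in the exon table, 63 were tested. These included Hist1h1t, Hist1h2aa and Hist3h2bb-ps, the last counted as H2B. The 5 others, which overlap near-identical copies, had 0 to 3 counts in all. Among the tested ones, Hist1h2ba, Hist1h2aa, Hist1h4m and Hist1h1t were near 0, with means of 1.06, 1.10, 2.48 and 4.04 CPM over the 13 libraries. Hist1h4m overlaps Hist1h4n in position, among near-identical copies, so its accessibility is uncertain. Its RNA read 199 and 512 FPKM in E18 GFP+ libraries. The 63 tested members had median levels of 22.6 CPM, which are counts scaled to a common library size, in the E10 library, 45.7 and 40.6 at E12.5, 88.7 and 88.0 at E14, 69.8 and 81.1 at E16.5, 93.2 and 94.7 at E18, 68.3 and 64.7 at P0 and 68.1 and 38.7 at P2. The E18 and E14 medians thus lay close together in chromatin, while the RNA medians of GFP+ cells were 295 and 411 FPKM at E18 and 1.18 and 1.09 at E14. Around the starts, in windows of 200 bp, accessibility peaked 100 bp upstream. The member peak was 5.49 CPM at E10, 7.73 at E12.5, 12.3 at E14, 11.8 at E16.5, 12.98 at E18, 10.9 at P0 and 8.89 at P2, as a mean over libraries. All start regions peaked at 3.19, 5.31, 6.01, 6.26, 6.504, 6.54 and 4.95 CPM at the same stages.

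**Figure D3:**
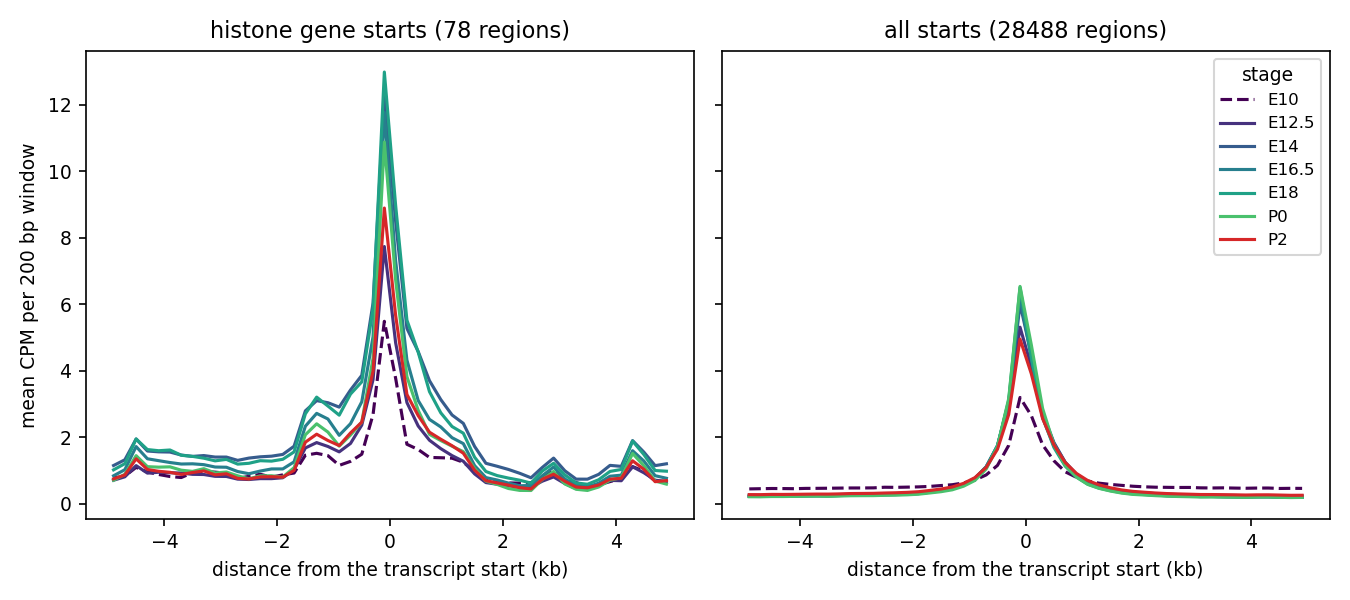
Mean ATAC-seq level in CPM per 200 bp window by distance from the gene start in kb, for the member start regions and for all start regions, at each of the 7 stages. The member curves rise to a peak just upstream of the start at every stage, highest at E18 with 12.98 CPM, and lie above those of all regions there.

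In the comparison of E18 with E14 chromatin, edgeR's quasi-likelihood test with Benjamini-Hochberg adjustment called 1 of the 63 members higher and 5 lower, where 3.13% of all genes tested were called higher and 7.78% lower, and the median difference was 0.07 on the log2 scale. The member that rose was Hist2h3b, at 86.6 and 99.8 CPM at E18 and 63.4 and 71.0 at E14 (0.48 ± 0.15, adjusted p = 0.044). Hist2h2be fell most, at 51.6 and 59.0 CPM at E18 and 105.8 and 111 at E14 (−0.96 ± 0.14), and it was the member whose RNA level stayed even. Hist2h3c1, Hist2h2ac, Hist3h2a and Hist1h2ac fell by 0.84, 0.74, 0.56 and 0.58 on the log2 scale. The count of 6 became 1 without the second E14 library, 37 (19 higher and 18 lower) without the first P2 library and 36 without the second, with 33.0% of all genes called in each of these 2 fits, 12 with library totals in place of TMM and 17 with loess scaling, chosen after seeing the data. E14 libraries had 18.9% and 18.8% as many exon counts as start-region counts, and all others 12.6% to 14.2%, so exon counts were spread otherwise at E14.

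In P2 against E14 chromatin, 48 of the 63 members fell, where 15% of all genes tested were called lower (edgeR), and 1 rose, where 11.1% were called higher. The median difference was −0.72 on the log2 scale (0.03 over all genes tested). The E14 libraries, whose exon counts were spread otherwise as given above, were the baseline here too. By type, 5 of 6 H1, 12 of 15 H2A, 15 of 17 H2B, 10 of 12 H3 and 6 of 13 H4 members fell. The second P2 library was weaker in signal at starts. Over all regions its start windows held 12.2 times the level of the flanks, against 22.7 in the first P2 library. The E14 libraries held 24.9 and 25.4. Over member regions alone the ratio was 7.53 and 7.49 at E14, 9.02 in the first P2 library and 7.07 in the second. In the central 2 windows of the member starts the median level was 10.3 and 10.4 CPM at E14. It was 9.55 CPM in the first P2 library and 6.12 in the second. Without the second P2 library 42 members fell and 2 rose, with a median of −0.45 and 30.4% of all genes called, and without the first 59 fell, with a median of −1.20 and 59.8% of all genes called.

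Hist1h2bg, an H2B gene, read 88.3 and 52.4 CPM at P2 and 200.8 and 200.5 at E14, with no overlap (−1.49 ± 0.18, edgeR). Hist1h2ac, an H2A gene, read 93.3 and 51.1 CPM at P2 and 203 and 207 at E14 (−1.48 ± 0.19), and Hist1h2bj 66.3 and 43.5 at P2 and 144 and 140.1 at E14 (−1.35 ± 0.17). Hist2h3c1 read 20.5 and 13.5 CPM at P2 and 43.5 and 52.5 at E14 (−1.46 ± 0.18). These 4 had the smallest p among the members that fell. The linker gene Hist1h1c, the member with the highest mean exon level, read 269 and 150.1 CPM at P2 and 375 and 357 at E14. The member that rose was the testis variant Hist1h2ba, at 2.63 and 1.75 CPM at P2 and 0.754 and 0.413 at E14 (1.94 ± 0.63, adjusted p = 0.0258, edgeR), a level far below the member median.

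**Figure D4:**
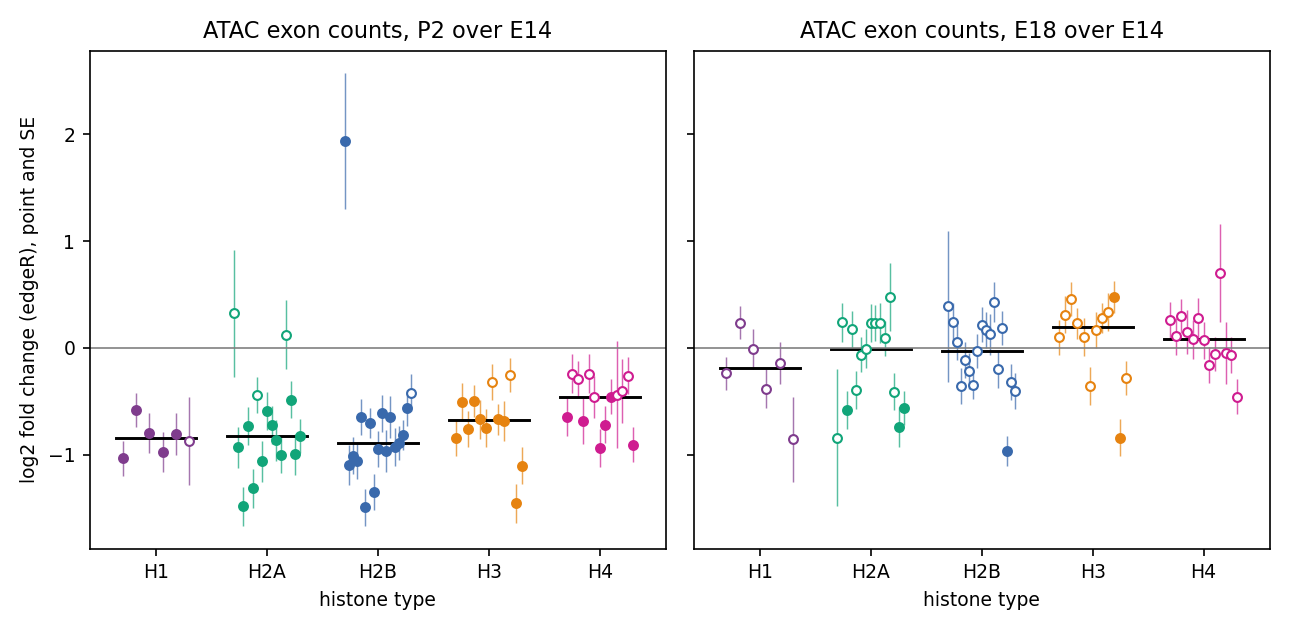
Difference in exon accessibility of each tested member on the log2 scale from edgeR with its SE, by histone type, for P2 over E14 and E18 over E14, with filled points for adjusted p under 0.05 and a bar at each median. Most members lie below 0 at P2, with a median of −0.72, and around 0 at E18, with a median of 0.07.

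The start regions, 10 kb wide, gave the same direction. In P2 against E14, 69 of the 78 regions fell, where 16.3% of all regions tested were called lower and 14.6% higher (edgeR), with a median of −0.75, and 58 fell without the second P2 library, where 28.6% of all regions were called. Summing only the central 1200 bp, an alternative chosen after seeing the data, 52 of 72 fell, where 24.2% of all regions were called. The smallest p belonged to neighbouring regions of the Hist2 group at Hist2h3c1, Hist2h3c2, Hist2h2aa2 and Hist2h2aa1, and the first of these fell by 0.96 ± 0.13 on the log2 scale. The regions at Hist1h4i and Hist1h2bk, singled out after their values were seen, fell by 1.22 ± 0.20 and 1.13 ± 0.18. Since 75 of the 78 regions overlapped another member's region, with a median of 3 partners, they are far fewer than 78 independent measurements. In E18 against E14, 3 regions fell and 0 rose, where 5.22% of all regions tested were called lower and 2.51% higher. The largest of these was at Hist2h3c2 (−0.52 ± 0.13), and the other regions were at Hist2h3c1 and Hist2h2aa1. The count was 0 with DESeq2, 12 with library totals and 24 with loess scaling, ranging from 0 to 15 when 1 library was left out.

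Over the 7 stages taken as a rank, edgeR called 0 members in exons, where 2.8% of all genes tested were called higher and 2.81% lower, with 3 members (4.76%) at an unadjusted p under 0.05, against 27.4% of all genes, and 0 regions, where 5.14% of all regions were called higher and 4.86% lower, with 6 (7.69%) at that p, against 35.4% of all regions. The median exon levels given above were highest at E14 and E18, in the middle of the series. Leaving out the second P2 library gave 16 exon and 17 region calls, where 42.4% of all genes and 60.8% of all regions were called, and with DESeq2, loess scaling or library totals 1, 8 and 4 regions were called.

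Across the 62 members with both values, RNA level and exon accessibility of GFP+ cells correlated at Pearson r = 0.27 at E14, 0.62 at E18 and 0.19 at P2 on the log scale, with Spearman rho of 0.28, 0.40 and 0.23. The 62 include Hist1h1t and Hist1h2aa, which stayed under 1 FPKM and were near 0 in accessibility. Their part in these values was not tested. The correlation is across genes of the same libraries, which share sequence and upstream DNA, and it is given as a description.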

How the data were processed

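RNA was analysed from 12 libraries and ATAC-seq from 13. The RNA values are FPKM per gene as deposited by the authors, with the program that made them not given in the sources used here. The ATAC values are raw counts per gene over exons and per 200 bp window around starts, deposited by the authors on mm9. The submitters' processing notes name Bowtie2, HISAT2, Picard 2.10.7, SAMtools 1.5, bedtools 2.26.0 and featureCounts 1.5.3, along with 2 genome builds (mm9, mm10), with no role given to any of them. Counting by strand is not stated, and near-identical members can share reads.

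FPKM were tested as log2(FPKM + 1) with limma 3.58.1 in R 4.3.3, using all 6 groups, an intensity trend and genes at 1 FPKM or more in at least 2 libraries. Counts were tested with edgeR 4.0.16 (TMM, filterByExpr, quasi-likelihood), all 13 libraries in 1 fit, with the 50 windows of a 10 kb region summed. All p-values were adjusted by Benjamini-Hochberg over all features, and errors are standard errors. DESeq2 1.42.0, other scalings, other filters, a replicate block and the removal of each library were tried, and the code was tested on simulated data. The files list no read totals for RNA, so FPKM values carry no counting interval, and a count of reads limits ATAC values of a few CPM.

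Members, lists and tests were chosen with earlier results of these data known. Genes named are the 3 highest of each type, all of Hist2, Hist3 and Hist4, the H1 genes and testis variants, the 3 highest and lowest differences called per RNA comparison, the 4 smallest p per direction in ATAC, leading genes of the pathway lists, and anchors. Hist1h2ap, Hist1h2ae, Hist1h2bc, Hist1h4j, the other members without a perfect stem-loop and those at 5 FPKM or more outside E18 were named after their values were seen. Stem-loops and promoters were searched by exact letters in GENCODE M21 and RefSeq on GRCm38, while positions of genes are those of the files on mm9.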

Additional observations from a re-analysis of the deposited data

Results flagged for a closer look

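The difference between GFP+ and GFP- cells changed between E18 and P2 for 4 members by the interaction test in limma over all genes, and each is listed with its effect at P2 minus that at E18. Hist1h2ah had −3.99, Hist1h2al −3.54, Hist1h1c −3.13 and Hist1h2br −2.99 on the log2 scale. Hist1h1c and Hist1h2al were higher in GFP+ cells at E18 and lower in GFP+ cells at P2, and Hist1h2ah and Hist1h2br were near 0 FPKM at P2 in both sorts. The median interaction over the 67 members was −1.70, and all 67 were below 0. The median member was under 1 FPKM in each P2 library, where log2(FPKM + 1) can show little difference. The median sort difference was 0.15 at P2 and 1.91 at E18, where all 67 were above 0. The common sign of the interaction thus mostly restates the E18 difference. The second E14 GFP- library, which went against its label, entered the shared estimate of the spread, and without it 29 members were called, where 1.2% of all genes tested were called. With a pseudocount of 0.1, with a replicate block and without the first E14 GFP+ library, 0 members were called.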

How the results depend on the processing

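Counts of members called in limma kept their direction and stayed near the reported value for the stage comparisons that include E18, at 62 to 65 (GFP+ E18 against E14), 63 to 66 (GFP+ P2 against E18), 61 to 64 (GFP- E18 against E14) and 60 to 64 (GFP- P2 against E18) when 1 library was left out. The other counts rested on single libraries, with ranges of 0 to 34 for the sort at E14, 2 to 66 at E18, 0 to 10 at P2, 0 to 3 for GFP+ P2 against E14 and 0 to 29 for the interaction. In ATAC the ranges were 1 to 37 (exons, E18 against E14), 35 to 59 (exons, P2 against E14), 0 to 16 (exon trend), 0 to 15 (regions, E18 against E14), 46 to 77 (regions, P2 against E14) and 0 to 17 (region trend). A pseudocount of 0.1 left 5 calls for the sort at E18 and 0 for the interaction. The interaction had 8 calls with no filter, 8 with no intensity trend, and 39 with only the groups compared or without the E14 libraries. At P2 the sort had 13 calls with only the groups compared and 17 without the E14 libraries, with more members higher than lower, which turned the balance, 2 with quantile scaling, 2 with rescaling and 0 without the E18 libraries. GFP+ P2 against E14 had 1 call with rescaling. Exons at E18 against E14 turned their balance to 19 higher and 18 lower, 37 in all, without the first P2 library, and had 12 calls with library totals and 17 with loess scaling. Regions at E18 against E14 had 12, 24 and 0 calls with library totals, loess scaling and DESeq2, and the region trend 4, 8 and 1. Averaged over the central 4 windows the median member level was 7.61 CPM per window at E18 and 7.51 at E14, against 10.6 and 10.4 over the central 2, a span closer to the peak. For single genes named here, 1285 of the alternative values stayed on the same side of the threshold, 301 fell short of it, 25 passed it and 0 changed direction. Causes of these changes were not tested. Runs without whole stages and with loess scaling were chosen after seeing the data.

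Replicate numbers showed no common pairing over 15 pairs of groups in each data type. Correlations of same-numbered deviations were −0.558 to 0.362 in RNA and −0.247 to 0.317 in ATAC. Pairing of the GFP+ and GFP- groups of a single stage was not tested apart. With a replicate block the sort at E18 had 45 calls, the interaction 0, exons at P2 against E14 52, regions 71 and the region trend 4. With 2 libraries a group and no read depth for RNA, differences of members near 1 FPKM could not be resolved.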
